A study of Mus musculus with 2 samples.

Results

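The 31 genes described here encode enzymes of serine and glycine synthesis, glycine cleavage, the folate cycle, purine synthesis and methionine and cysteine metabolism. They were chosen by gene name from 22838 genes in the deposited table, and all 31 had an entry. The measurement was mRNA sequencing of NIH3T3, a long-established line of mouse fibroblasts, with 1 library of untreated cells and 1 library of cells given 100 µM ALA for 16 h. ALA is not spelled out in the labels. In heme biology it is short for δ-aminolevulinic acid, and the series title concerns SRRD, heme synthesis and circadian rhythms. No genotype change or other agent is named for either group.

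As background, cells make serine from a glycolytic intermediate and convert it to glycine, and the carbon released is carried by folate. That carbon is used for purine rings, thymidylate and the remethylation of homocysteine, while homocysteine can also leave the methionine cycle to become cysteine. Glycine is joined to succinyl-CoA to make δ-aminolevulinic acid, the first committed molecule of heme synthesis, so supplied ALA enters the heme pathway after the step that uses glycine. Many genes of serine and mitochondrial folate metabolism are known targets of ATF4, a transcription factor of the amino acid response.

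Nearly all genes of the pathway were within 1.5-fold of their untreated level in the ALA library. Of the 31 genes, 27 had a mean of at least 1 FPKM over both libraries and are called measured. FPKM scales fragments to transcript length and to library size. The log2 ratio used throughout is log2((ALA FPKM + 1)/(untreated FPKM + 1)). By this ratio 18 of the 27 were higher and 9 lower. Over all 10929 measured genes 47.8% were higher and 52.2% lower. The median log2 ratio of the 27 was 0.08, against -0.02 for all measured genes. No member was at least 1.5-fold higher, and 1 member, Mthfd2l, was at least 1.5-fold lower. The shares over all measured genes were 5.90% higher and 7.16% lower by that fold. With both libraries scaled to the same FPKM total these shares were 7.76% and 5.87%, so the direction of the excess depends on the scaling. At a threshold of 1.25-fold, added after the data were seen, 6 members were higher and 2 lower, beside 16.0% and 18.4% of all measured genes. The summed level of the 31 genes was 1108 FPKM untreated and 1213 FPKM with ALA. Each group is 1 library, so no difference has a replicate check and none carries a p-value.

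The spacing of low FPKM values put the depth at about 21700000 reads in the untreated and 30800000 in the ALA library. The measured members rested on about 164 to 8290 reads untreated and 131 to 13172 with ALA. Approximate 95% intervals of the log2 ratio from these reads cover counting error only. The interval lay above 0 for 13 members, below 0 for 6 and over 0 for 8, while it lay above 0 for 35.2% and below 0 for 39.3% of the measured genes that have one. Counting error was smaller than the spread between genes. For the 8607 genes averaging 5 FPKM or more, 95% of log2 ratios lay between -0.77 and 0.69, and all 26 members at that level lay inside this range. In the narrower class of 20 to 200 FPKM the upper limit was 0.556, and Shmt2 at 0.558 was at that edge. Of 11 fibroblast markers 10 were measured, summing to 12938 FPKM untreated and 11294 FPKM with ALA, highest in S100a4 at 4976 and 4717 FPKM, and Lum was listed at 0 in both. Of these 10 markers 9 were lower with ALA, with a median log2 ratio of -0.26, and Dcn (-0.95), Pdgfra (-0.64) and Thy1 (-0.62) were at least 1.5-fold lower. Of 6 macrophage markers with an entry, 3 were measured and the sum was 29.9 and 17.9 FPKM. Lyz2, the highest, was lower at 15.2 and 9.59 FPKM, as was Cd14 at 13.1 and 4.69 FPKM. The other 4 were higher, with Cd68 at 0.237 and 1.40 FPKM, Ptprc at 0.367 and 0.754 FPKM, Aif1 at 0.949 and 1.42 FPKM and Csf1r at 0 and 0.0466 FPKM. Of 7 liver markers 6 were at 0 in both libraries, and the last, Gnmt, had 0 and 0.285 FPKM. The 5 epithelial markers summed to 1.23 and 1.04 FPKM, led by Cdh1, and the 5 erythroid markers to 2.503 and 1.83 FPKM, led by Epor. The part of such cells in the results was not tested.

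**Figure D1:**
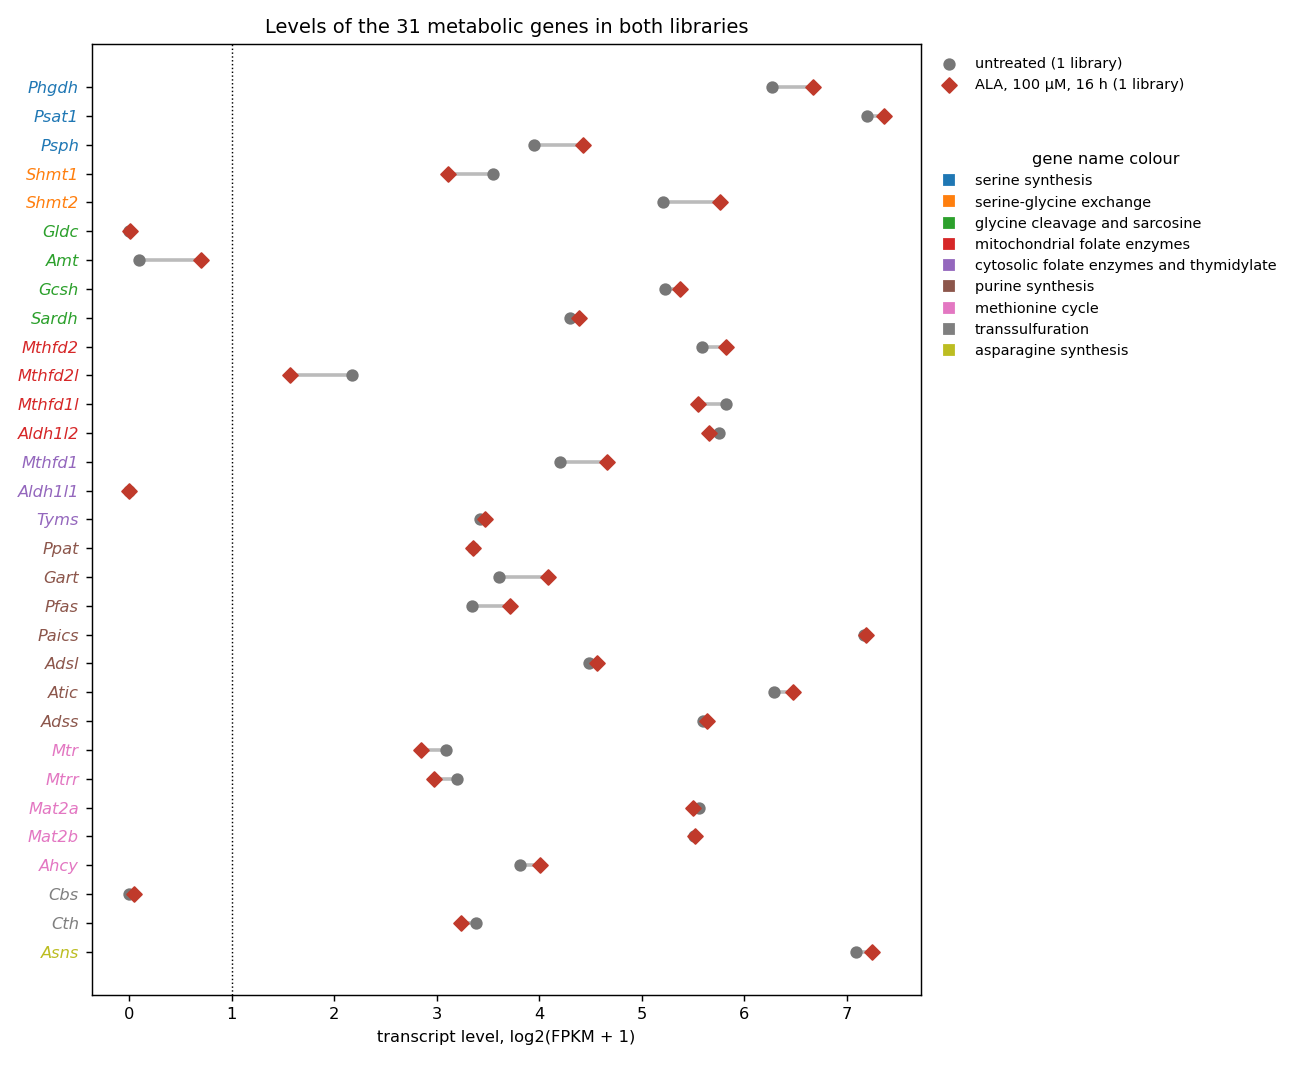
Transcript level of each of the 31 genes as log2(FPKM + 1), with a grey circle for the untreated library and a red diamond for the ALA library; gene names are coloured by role and the dotted line marks 1 FPKM. Psat1, Paics and Asns are the 3 highest genes in both libraries, and Gldc, Amt, Aldh1l1 and Cbs lie under 1 FPKM in both.

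The serine synthesis enzymes were all higher in the ALA library, by small amounts. Phgdh, which encodes the dehydrogenase that starts the pathway, had 76.4 FPKM untreated and 101 FPKM after ALA (log2 ratio 0.40, counting interval 0.34 to 0.46). Psat1, the gene of the aminotransferase that follows, had 146 and 163 FPKM and a log2 ratio of 0.16 (counting interval 0.12 to 0.20). It was the most abundant of the 31 genes. Psph, whose phosphatase releases free serine, had 14.5 and 20.5 FPKM and a log2 ratio of 0.48 (counting interval 0.34 to 0.62). Psph was the least abundant of the serine synthesis genes in each library, and the level of Psat1 was 10.1 times that of Psph untreated and 7.96 times with ALA. The median log2 ratio of these genes was 0.40. The value of Phgdh is uncertain because 66.7% of its 41-base stretches also occur in other genes, with Gm7901 sharing the most. Psph shares 21.4% of its stretches with other genes, chiefly Cct6a, a chaperonin subunit gene whose exons it overlaps and which was at 88.3 and 109 FPKM. Reads were not stated to be counted by strand, so reads in the shared part cannot be told apart.

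The paralogs that interconvert serine and glycine differed in opposite directions. Shmt2 encodes the mitochondrial serine hydroxymethyltransferase and lies on the minus strand of chromosome 10 (chr10:127517123-127522444 in GRCm38), with 12 exons in its longest coding transcript. It had 35.8 FPKM untreated and 53.2 FPKM with ALA, which is 1.49-fold higher. With equal library totals its log2 ratio was 0.64, past 1.5-fold. Its log2 ratio of 0.56 (counting interval 0.48 to 0.64) was the highest of the 27 measured members and ranked 392 from the top of those 8607 genes. Shmt1 encodes the cytosolic enzyme and lies on the minus strand of chromosome 11 (chr11:60788104-60811718). It had 10.7 FPKM untreated and 7.60 FPKM with ALA, which is 1.41-fold lower, a log2 ratio of -0.44 (counting interval -0.58 to -0.30). Shmt2 was thus the more abundant paralog in both libraries, and the distance between them was larger with ALA. The level of Shmt2 was 3.35 times that of Shmt1 untreated and 7.003 times with ALA, a change of 2.09-fold with a counting interval of 1.85 to 2.36. This ratio is taken within each library, so the scaling between libraries does not enter it.

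Promoter windows from RefSeq on GRCm38.p6 were available for 28 of the 31 genes, and Aldh1l2, Pfas and Cth had none in that table. Shmt2 was the measured member with the highest log2 ratio, Gart a purine gene that was also higher, and Psat1 the most abundant member. The 250 bases before the start are shown for each, with the more distant of 2 windows for Psat1. All lie on the minus strand, at chr10:127522445-127522694, chr16:91646973-91647222 and chr19:15925060-15925309. They are written 5′ to 3′ towards the gene, with matches to the searched motifs in capitals.
Shmt2: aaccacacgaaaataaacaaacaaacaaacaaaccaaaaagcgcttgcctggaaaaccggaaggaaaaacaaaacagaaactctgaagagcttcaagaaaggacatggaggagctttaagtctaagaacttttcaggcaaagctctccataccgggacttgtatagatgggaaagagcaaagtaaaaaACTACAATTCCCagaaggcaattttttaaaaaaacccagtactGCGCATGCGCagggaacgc
Gart: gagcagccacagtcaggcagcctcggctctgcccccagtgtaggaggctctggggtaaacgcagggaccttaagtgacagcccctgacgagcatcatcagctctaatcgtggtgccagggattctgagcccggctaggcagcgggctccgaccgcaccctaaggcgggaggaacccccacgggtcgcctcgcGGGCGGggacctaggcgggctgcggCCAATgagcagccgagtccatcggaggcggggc
Psat1: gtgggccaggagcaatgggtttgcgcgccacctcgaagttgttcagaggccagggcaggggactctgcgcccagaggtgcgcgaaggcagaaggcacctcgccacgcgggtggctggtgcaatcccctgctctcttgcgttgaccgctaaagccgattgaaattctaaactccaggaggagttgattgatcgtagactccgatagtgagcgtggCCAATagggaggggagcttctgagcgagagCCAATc
The motifs, searched on both strands, were TGATGNAA (the core of the ATF4 and C/EBP composite element), CACGTG (the E-box bound by MYC and other factors), the CCAAT box, the GC box GGGCGG, the palindromic NRF1 motif and the core of the ZNF143 motif. The NRF1 and ZNF143 motifs were added after the Shmt2 window had been read. Shmt2 held the ZNF143 motif 62 bases before its start and the NRF1 motif 19 bases before it, and was the 1 member window of 30 with either. They occur in 0.871% and 0.782% of all 32851 windows of the same length. Gart held GGGCGG at 58 bases and the CCAAT box at 33 bases before its start. The Psat1 window shown held CCAAT at 36 and 6 bases. The other Psat1 window held no CCAAT and 1 GGGCGG, 11 bases before its start. CCAAT was present in 20 of 30 member windows and GGGCGG in 24, against 33.8% and 32.7% of all windows. Psat1 and Mtrr had 2 windows each, and those of Mtrr overlap, so some sites are counted more than once. By gene, 19 of 28 members held CCAAT and 23 held GGGCGG. For 27 of the 30 windows the bases just after the start matched an annotated transcript of the gene. Some windows, among them those of Ppat and Paics, lie wholly in annotated exons. Member windows were richer in G and C, with a median of 59.8% against 52.4%. These matches describe the sequence and are not evidence of binding.

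Shorter stretches of 30 bases show the TGATGNAA match of Asns and the CACGTG matches of Atic and Tyms, since these motifs belong to the regulators described further on.
Asns: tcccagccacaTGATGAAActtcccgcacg
Atic: gaggaggggcgggacctcggggtCACGTGg
Tyms: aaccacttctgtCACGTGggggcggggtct
They lie at chr6:7693214-7693243 on the minus strand, chr1:71557126-71557155 on the plus strand and chr5:30073669-30073698 on the minus strand, with the motif in capitals. Asns was the 1 member window of 30 with TGATGNAA, which 3.45% of all windows hold. CACGTG was in the windows of 4 members, Atic, Tyms, Paics and Cbs, and in 6.02% of all windows.

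The glycine cleavage system breaks glycine down in mitochondria, and its Gldc and Amt subunits were barely expressed. Gldc, the glycine-decarboxylating subunit, was listed at 0 FPKM untreated and had 0.00713 FPKM with ALA, or about 1 read. Amt, the aminomethyl-transferring subunit on chromosome 9 (chr9:108296853-108302302), had 0.0678 and 0.627 FPKM, or about 3 and 40 reads. The ratio from these reads was 9.39 with an exact 95% counting interval of 2.99 to 47.5, and both levels were under the minimum of 1 FPKM, so Amt entered no count. Gcsh, the lipoate-bearing carrier protein of the system, was well expressed at 36.4 and 40.3 FPKM, a log2 ratio of 0.14 (counting interval 0.04 to 0.25). Sardh, whose enzyme makes glycine from sarcosine, had 18.6 and 20 FPKM and a log2 ratio of 0.10 (counting interval 0.02 to 0.18). For Gldc the depth sets the limit, since 3 reads correspond to 0.0367 FPKM untreated and 0.0259 FPKM with ALA.

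**Figure D2:**
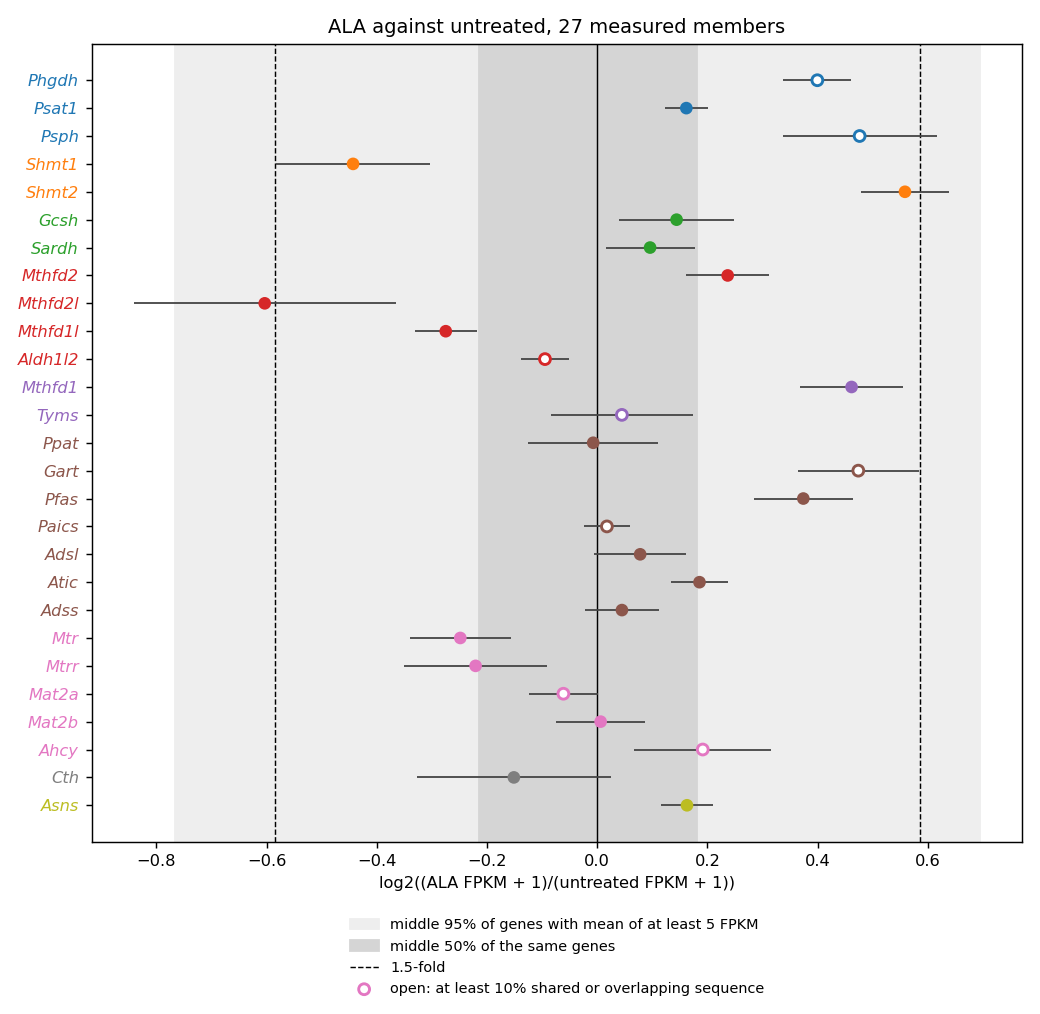
Log2 ratio of ALA to untreated for the 27 measured members, with approximate 95% counting intervals; gene names and points are coloured by role as in the plot of levels, open points mark members with at least 10% shared or overlapping sequence, and shading gives the spread of genes averaging 5 FPKM or more. Shmt2 is highest at 0.56 and Mthfd2l lowest at -0.60, and no other member than Mthfd2l passes the dashed line at 1.5-fold.

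Mitochondrial folate enzymes went both ways. Mthfd2, whose dehydrogenase and cyclohydrolase activities act on methylene-tetrahydrofolate, had 47.1 FPKM untreated and 55.7 FPKM after ALA (log2 ratio 0.24, counting interval 0.16 to 0.31). Its less abundant paralog Mthfd2l (chr5:90931117-91021368, plus strand) had 3.51 and 1.97 FPKM, from about 164 and 131 reads. The log2 ratio of Mthfd2l was -0.60 (counting interval -0.84 to -0.37), the lowest of the 27 members. In the class of 1 to 5 FPKM 95% of all genes lay between -1.29 and 1.19, and Mthfd2l lay inside this range. It was no longer 1.5-fold lower with 5 FPKM added, with equal library totals or with centred ratios. The level of Mthfd2 was 13.4 times that of Mthfd2l untreated and 28.3 times with ALA, a change of 2.11-fold (counting interval 1.67 to 2.67). Mthfd1l, which encodes the synthase that releases formate in mitochondria, had 55.7 and 45.9 FPKM and a log2 ratio of -0.27 (counting interval -0.33 to -0.22). Aldh1l2, the mitochondrial formyl-tetrahydrofolate dehydrogenase gene, had 52.9 and 49.5 FPKM and a log2 ratio of -0.09 (counting interval -0.14 to -0.05). Aldh1l2 overlaps D10Wsu102e in 14.1% of its exon bases, so its value is uncertain.

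For the synthase step the cytosolic gene Mthfd1 was higher with ALA, while the mitochondrial gene Mthfd1l was lower. Mthfd1, the cytosolic enzyme that carries the dehydrogenase, cyclohydrolase and synthase activities in 1 protein, had 17.4 FPKM untreated and 24.4 FPKM with ALA. It lies on the plus strand of chromosome 12 (chr12:76255298-76319803), and its log2 ratio was 0.46 (counting interval 0.37 to 0.56). None of its 41-base stretches occur in another gene. The level of Mthfd1 was 0.313 times that of Mthfd1l untreated and 0.532 times with ALA, a change of 1.70-fold (counting interval 1.57 to 1.84). Aldh1l1, the cytosolic counterpart of Aldh1l2, was listed at 0 in both libraries. Tyms, whose thymidylate synthase uses the folate-bound carbon for DNA synthesis, had 9.72 and 10.1 FPKM (log2 ratio 0.04). Its counting interval of -0.08 to 0.17 spans 0, and 14.5% of its stretches occur in other genes, with Tyms-ps sharing the most. Summed over 5 mitochondrial genes (Shmt2, Mthfd2, Mthfd2l, Mthfd1l and Aldh1l2) the level was 195 FPKM untreated and 206 FPKM with ALA. Over 3 cytosolic genes (Shmt1, Mthfd1 and Aldh1l1) it was 28.1 and 32.0 FPKM. The mitochondrial sum was 6.94 times the cytosolic sum untreated and 6.45 times with ALA, so the summed balance changed less than that of the single pairs.

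**Figure D3:**
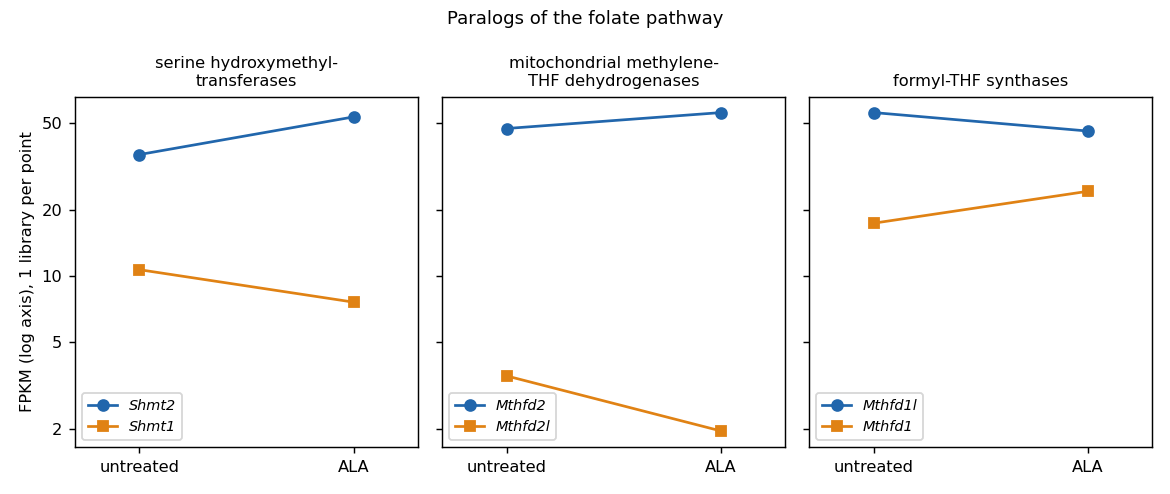
Level in FPKM on a log axis in the untreated and the ALA library, 1 library per point, for 3 pairs of paralogs of the folate pathway (THF, tetrahydrofolate). Shmt2 and Mthfd2 are higher with ALA while Shmt1 and Mthfd2l are lower, and Mthfd1l is lower while Mthfd1 is higher.

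In purine synthesis 6 of 7 genes were higher and 1 lower, with a median log2 ratio of 0.08 and 2 genes at least 1.25-fold higher. Over all measured genes 47.8% were higher and 16.0% at least 1.25-fold higher. Gart encodes an enzyme that both attaches glycine to the growing purine and adds a folate-borne formyl group, and it had 11.2 FPKM untreated and 16.0 FPKM with ALA. Its log2 ratio was 0.47 (counting interval 0.36 to 0.58), and 12.9% of its stretches occur in other genes. Pfas, whose amidotransferase acts next, had 9.13 and 12.1 FPKM and a log2 ratio of 0.37 (counting interval 0.28 to 0.46). Atic, which encodes the enzyme of the last steps to inosine monophosphate and also uses formyl-tetrahydrofolate, had 77.5 and 88.3 FPKM and a log2 ratio of 0.19 (counting interval 0.13 to 0.24). The other purine genes had counting intervals that span 0. Adsl, the adenylosuccinate lyase gene, had 21.4 and 22.7 FPKM (log2 ratio 0.08), and Adss, the gene of the synthetase that leads to adenylate, had 47.4 and 48.9 FPKM (0.04).

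Ppat and Paics are neighbours on chromosome 5 that start close together on opposite strands (chr5:76913249-76951578 and chr5:76951307-76967509), and their levels were far apart. Ppat, the gene of the amidotransferase that commits to purine synthesis, had 9.25 FPKM untreated and 9.20 FPKM after ALA (log2 ratio -0.01). Paics, which encodes a carboxylase and synthetase in 1 protein, had 143 and 145 FPKM and a log2 ratio of 0.02. The level of Paics was 15.4 times that of Ppat untreated and 15.7 times with ALA, and the change of 1.02-fold had a counting interval of 0.93 to 1.12. The genes overlap in 8.67% of the Paics exon bases and 6.15% of those of Ppat. Ppat turned to 0.06 with equal library totals.

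S phase genes, listed because purines and thymidylate feed DNA synthesis, were higher in 9 of 12 cases, beside 47.8% of all measured genes. Their median log2 ratio was 0.17, and their part in the purine values was not tested. Of these, Gins2, a subunit of the replicative helicase, went from 16.9 to 29.0 FPKM (log2 ratio 0.74), with 67.3% of its exon bases inside Gse1. Ccne2, cyclin E2, was lower at 14.2 against 8.83 FPKM (-0.63), with 17.4% inside Ints8.

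Methionine cycle genes were near the level of the untreated library, with 2 of 5 higher, 3 lower and a median log2 ratio of -0.06. With equal library totals 3 were higher and 2 lower, with a median of 0.02. Mtr, the methionine synthase that passes a folate-borne methyl group to homocysteine, had 7.52 FPKM untreated and 6.17 FPKM after ALA (log2 ratio -0.25, counting interval -0.34 to -0.16). Mtrr, which encodes the reductase that reactivates methionine synthase, had 8.17 and 6.87 FPKM and a log2 ratio of -0.22 (counting interval -0.35 to -0.09). The synthase and its reductase were thus lower by similar amounts. Mat2a, the catalytic subunit of the enzyme that makes S-adenosylmethionine, had 46.1 and 44.2 FPKM and a log2 ratio of -0.06, which turned to 0.02 with equal library totals. Mat2b, its regulatory subunit, had 44.7 and 44.9 FPKM (log2 ratio 0.01). The level of Mat2a was 1.03 times that of Mat2b untreated and 0.984 times with ALA. Of the stretches of Mat2a 13.5% occur in other genes, with Gm9523 sharing the most. Ahcy, which encodes the hydrolase of S-adenosylhomocysteine, had 13.1 and 15.1 FPKM and a log2 ratio of 0.19 (counting interval 0.07 to 0.32). Of the stretches of Ahcy 77.0% occur in other genes, with Gm4737 sharing the most, and the sum of both genes was 19.8 and 21.8 FPKM, a log2 ratio of 0.13.

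Transsulfuration was represented by 1 measured gene. Cbs, the gene of the first enzyme from homocysteine towards cysteine, was listed at 0 untreated and had 0.0345 FPKM with ALA, about 7 reads. Cth, the gene of the second, had 9.45 and 8.41 FPKM (log2 ratio -0.15), and its counting interval of -0.33 to 0.03 spans 0. The entry step was at or near 0 in both libraries while the exit step was expressed. Among 11 measured genes of cysteine, glutathione and sulfide metabolism 7 were higher and 4 lower, with a median log2 ratio of 0.07. The glutathione synthesis genes Gss and Gclm were at least 1.5-fold higher, Gss from 14.7 to 26.6 FPKM (log2 ratio 0.81) and Gclm from 55.7 to 88.3 FPKM (0.66). Gss shares 17.9% of its stretches with other genes.

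Asns, the asparagine synthetase gene, is a widely used marker of ATF4 activity and was among the 3 most abundant members. It had 135 FPKM untreated and 151 FPKM after ALA (log2 ratio 0.16, counting interval 0.12 to 0.21). Of the 9 members listed as ATF4 targets (Phgdh, Psat1, Psph, Shmt2, Mthfd2, Mthfd1l, Aldh1l2, Cth and Asns) 6 were higher and 3 lower, with a median of 0.16. Atf4 itself had 245 and 242 FPKM, a log2 ratio of -0.02. In the list of Atf4 with 13 further targets outside the 31 genes, 2 of 14 were higher and 12 lower, with a median of -0.18. The split by direction depends on the scaling: with equal library totals 6 were higher and 8 lower, with a median of -0.10. The median of all measured genes was -0.02, and 0.05 with equal library totals. The median of the list was thus below that of all measured genes in both settings. The amino acid transporter genes Slc7a5 and Slc3a2 were the 2 higher genes, with log2 ratios of 0.56 and 0.27. At least 1.5-fold lower were the stress factor genes Atf3, from 2.29 to 0.284 FPKM (log2 ratio -1.36), and Ddit3, from 96.96 to 58.7 FPKM (-0.71), and the mTORC1 inhibitor gene Ddit4, from 109 to 54.4 FPKM (-0.99). Atf3 rested on only about 98 and 17 reads. The difference between the lists was not tested. MYC and its partners, 5 measured genes, were all lower with a median of -0.36. Over all measured genes 52.2% were lower and 7.16% at least 1.5-fold lower. Myc had 32.5 and 25.1 FPKM (log2 ratio -0.36), and the MYC antagonist genes Mxd1 and Mxi1 were at least 1.5-fold lower at -0.95 and -0.79.

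Among other genes that supply or use glycine and folate, several were at least 1.5-fold apart. Over all measured genes 5.90% were higher and 7.16% lower by that fold. Alas1, whose enzyme condenses glycine with succinyl-CoA, had 10.2 FPKM untreated and 4.52 FPKM after ALA (log2 ratio -1.02), while Srrd, named in the series title, had a log2 ratio of 1.79 with 31.4% of its exon bases inside Tfip11. Slc25a38, the mitochondrial glycine carrier, had 5.68 and 9.19 FPKM (log2 ratio 0.61). Slc19a1, the reduced folate carrier, had 10.7 and 16.6 FPKM (0.59). These were the genes at least 1.5-fold apart among 12 measured transport genes, of which 8 were higher and 4 lower. Among 7 measured other enzymes of glycine and serine 4 were higher and 3 lower. Lias and Lipt2, whose enzymes act in putting lipoate on the H protein that Gcsh encodes, had 13.0 and 21.6 FPKM (log2 ratio 0.69) and 1.202 and 2.64 FPKM (0.72). Sdsl, a serine dehydratase-like gene, had 2.25 and 0.602 FPKM (-1.02), and Srr, the serine racemase gene, 8.43 and 5.01 FPKM (-0.65) with 29.96% of its exon bases inside Tsr1. Among 12 measured other folate and thymidylate enzymes 8 were higher and 4 lower, with a median of 0.14. Mthfs, which returns formyl-tetrahydrofolate to the cycle, was the 1 gene of these at least 1.5-fold apart, with 6.87 and 2.58 FPKM (-1.13), but 62.1% of its stretches occur in other genes, with Mthfsl sharing the most.

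**Figure D4:**
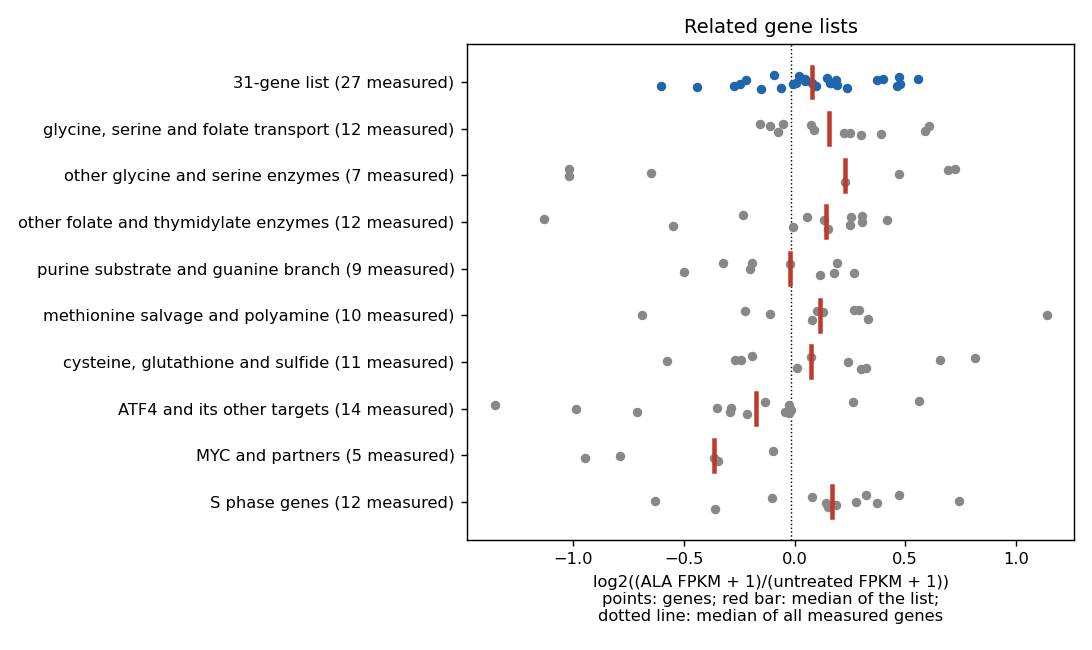
Log2 ratio of each measured gene in the 31-gene list and in the related lists, with 1 point per gene, a red bar at the median of each list and a dotted line at the median of all measured genes (-0.02). The 27 measured genes of the 31-gene list lie between -0.60 and 0.56, while the related lists reach from -1.36 to 1.14.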

How the data were processed

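Levels were measured by mRNA sequencing in 1 untreated and 1 ALA library of NIH3T3 cells, made with a TruSeq kit and read as single 41-bp reads, per the labels' protocols. The deposited values are FPKM per gene, per the file headers. FastQC 0.11.5, TopHat2 2.1.1, Cufflinks 2.2.1 and build mm10 are named in the submitters' processing notes. The sources used here do not give the options, annotation, strand setting or library scaling. The deposited lower and upper bounds of FPKM were equal in 100% of rows and carry no error.

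Ratios were computed in Python 3.11.15 with 1 FPKM added, which understates the change of low genes. No count model was applied to FPKM. Genes averaging 1 FPKM or more entered the counts. Approximate reads were FPKM times the length of the longest coding transcript times the depth. Depth was the value at which low FPKM of 265 and 388 single-transcript genes over 1500 bp came closest to whole reads, with 21000000 to 22600000 and 30100000 to 31500000 fitting nearly as well. Positions, exon overlap and shared 41-base stretches (exact matches) came from GENCODE vM21 on GRCm38, the assembly that mm10 names, with 21557 genes matched by name and position. The 31 members, the lists, the motifs and the tests were chosen with earlier results of these data known. Named were all members, genes of related lists at least 1.5-fold apart or else up to 2 with the largest ratio, the highest gene of each marker list, and Alas1, Slc25a38, Srrd and Atf4. Further genes, and the gene pairs compared beside Shmt2 with Shmt1 and Mthfd2 with Mthfd2l, were chosen after their values were seen.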

Additional observations from a re-analysis of the deposited data

How the results depend on the processing

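The count of members at least 1.5-fold lower was 1 (Mthfd2l), and it was 0 with a pseudocount of 5, with equal FPKM totals, with ratios centred on the median of genes averaging 10 FPKM or more and with a minimum mean of 5 FPKM. The count at least 1.5-fold higher was 0, and it was 1 with equal FPKM totals (Shmt2 at 0.64) and 1 with no filter on low values (Amt). At 1.25-fold, a threshold chosen after seeing the data, the counts were 6 and 2. The median of the members stayed between 0.05 and 0.15 over the alternatives run. Of the single members, Ppat and Mat2a changed sign under another scaling. Leaving out members with at least 10% shared or overlapping sequence moved the median of the methionine cycle to -0.22 over 3 genes. The median of purine substrate, guanylate and adenylate deaminase genes moved to -0.19 over 5 and that of other glycine and serine enzymes to 0.47 over 5. Serine synthesis was left with 1 gene, Psat1, at 0.16, against a median of 0.40 over 3 genes. Cytosolic folate enzymes were left with 1 gene, Mthfd1, at 0.46, against a median of 0.25. The median of the 19 members left was 0.08. Counting intervals rest on the estimated depth. Leaving out a replicate was not possible with 1 library per group. No paired analysis was possible because each group has 1 library.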

Other observations

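Methionine salvage genes, which return the sulfur left over from polyamine synthesis to methionine, were the related list with the highest single ratio. Of 10 measured genes of salvage and polyamine synthesis 7 were higher and 3 lower, with a median log2 ratio of 0.11. Enoph1, the enolase-phosphatase of the salvage route, had 3.15 FPKM untreated and 8.15 FPKM with ALA (log2 ratio 1.14, counting interval 0.92 to 1.36). Adi1, whose dioxygenase acts directly after it, had 32.9 and 20.1 FPKM (log2 ratio -0.69, counting interval -0.80 to -0.57). Neighbouring steps of the route thus differed in opposite directions. Mtap, which starts the route, was the most abundant gene of this list at 304 and 282 FPKM.

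Of 9 measured genes that supply the purine substrate, lead to guanylate or deaminate adenylate, 4 were higher and 5 lower. Their median log2 ratio was -0.02. The median was 0.05 with equal library totals, and it was -0.19 over the 5 genes with under 10% shared or overlapping sequence. Ampd3, an adenylate deaminase gene, had 8.67 and 5.83 FPKM (log2 ratio -0.50), and Gmps, the guanylate synthetase gene, had 21.6 and 17.0 FPKM (-0.32).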
